A study of Mus musculus with 7 samples.

Results

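Of the 20927 genes in the count table, 10 that carry or read out transforming growth factor beta (TGF-beta) signalling in fibroblasts were followed in the left ventricle. They were taken by gene symbol from a given list, and all 10 were found and all 10 passed the filter on low counts that left 13894 genes for testing. The list holds the 3 ligands Tgfb1, Tgfb2 and Tgfb3, the receptors Tgfbr1 and Tgfbr2, the latency protein Ltbp1, the target and matrix genes Ctgf (also called Ccn2), Postn and Fn1, and the inhibitory Smad gene Smad7. Left ventricles came from wild-type (WT) mice and from mice homozygous for the A178D missense change in the giant sarcomere protein titin, both on the C57BL/6J strain according to the labels. The knock-in was made by gene editing in C57BL/6N embryonic stem cell clones and crossed back to C57BL/6J, and whether C57BL/6N DNA remained beside the edited gene was not tested here. There were 3 WT hearts (replicates 1, 3 and 4) and 4 A178D hearts (replicates 1 to 4), with 1 library each and no treatment named. The age of these mice is not given in the sources used here.

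TGF-beta is secreted in a latent complex, tethered to the extracellular matrix by latent TGF-beta binding proteins, and has to be released before it can bind. The freed ligand joins a type II receptor to a type I receptor, which phosphorylates Smad2 and Smad3, and these enter the nucleus with Smad4. In the heart the pathway is best known for turning resting fibroblasts into matrix-secreting cells, with periostin, fibronectin, collagens and connective tissue growth factor among the products.

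The libraries held between 33080675 and 54245530 counts. Values below are counts per 1000000 counts (CPM), with library sizes scaled by edgeR's TMM method, and are listed in the order of the replicate numbers. A pair of libraries stood apart from the rest. Relative to the other libraries, counts rose with transcript length in WT replicate 1 (0.0805 on the log2 scale per doubling of length) and fell with it in A178D replicate 4 (-0.1361). The slopes of the remaining 5 libraries lay between -0.0136 and 0.0253. The Y-linked genes Ddx3y, Kdm5d, Uty and Eif2s3y were detected in all 7 hearts, Ddx3y at 104, 99.4 and 118 CPM in WT and 119, 109, 103 and 75.2 CPM in A178D. Cardiomyocyte genes marked the tissue as heart muscle, and the most abundant of them, the myosin heavy chain gene Myh6, was at 38733, 41671 and 39563 CPM in WT and 36176, 38074, 35695 and 38705 CPM in A178D.

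None of the 10 members passed the test between A178D and WT (edgeR, Benjamini-Hochberg adjusted p under 0.05 over all 13894 genes). Below, a gene is called if it passed in this fit, unless another fit is named. Over all tested genes, 145 were called higher in A178D (1.04%) and 182 lower (1.31%). Without 1 heart these counts moved by more than 1.5 times in several cases: to 22 and 31 without WT replicate 3, to 40 and 42 without WT replicate 4, to 40 and 50 without A178D replicate 1, and to 78 and 112 without A178D replicate 3, while without A178D replicate 2 the lower calls moved to 115. At an unadjusted p under 0.05, 4 of the 10 members were lower (Tgfbr2, Ltbp1, Ctgf and Fn1) and 0 higher, against 8.81% and 7.93% of all tested genes. DESeq2 called 1 member, Ltbp1, among the 2.85% of genes that it called lower, and limma-voom called 0 where it called 1.28% of genes lower. Without WT replicate 1, edgeR also called Ltbp1. The members' median log2 fold change was -0.12, with 3 of 10 above 0, beside a median of 0.00 over all tested genes. Summed over the 10 members, the level was 487, 515 and 436 CPM in WT and 402, 428, 419 and 429 CPM in A178D. Every A178D sum was below every WT sum, with A178D replicate 4 close to WT replicate 4, and the sums were not tested.

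**Figure D1:**
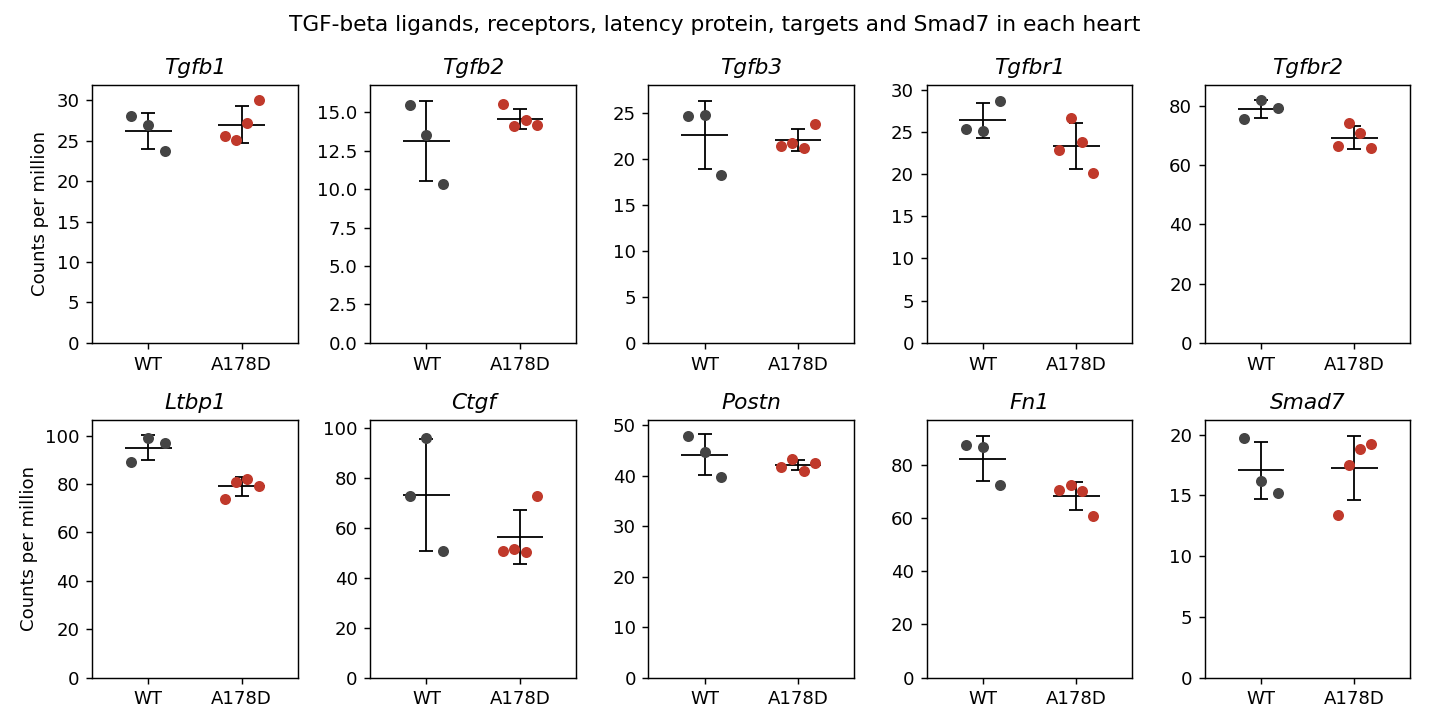
Level of each of the 10 members in each heart, in CPM scaled to TMM library sizes, with 1 point per heart (3 WT, 4 A178D) and the mean ± SD of each genotype in black; each panel starts at 0. The WT and A178D points are fully apart for Ltbp1, Tgfbr2 and, by a narrow margin, Fn1, and overlap for the other 7 genes.

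Among the ligands, Tgfb1 (chr7:25687002-25705077 on GRCm38), the ligand most studied in heart fibrosis, was at 28.1, 26.9 and 23.8 CPM in the WT hearts and 25.6, 25.1, 27.2 and 30.05 CPM in the A178D hearts. The genotypes overlapped, with A178D replicate 4 highest and WT replicate 4 lowest. Its log2 fold change, A178D minus WT, was 0.04 (SE 0.0926, edgeR adjusted p = 0.883), and the 95% interval from limma-voom ran from -0.17 to 0.22. Tgfb2 (chr1:186622792-186705989), a ligand with a part in the development of the valves, was at 15.5, 13.6 and 10.3 CPM in WT and 15.5, 14.1, 14.5 and 14.2 CPM in A178D. WT replicate 4 was again the lowest heart, and the A178D hearts lay within the range of the other WT hearts or just above it. The difference was 0.15 (SE 0.124, edgeR adjusted p = 0.583) on the log2 scale, with an interval of -0.11 to 0.42, and depended on the hearts, at 0.01 without WT replicate 4 and 0.29 without WT replicate 1. For Tgfb3 (chr12:86056745-86079041) the WT hearts stood at 24.7, 24.8 and 18.3 CPM and the A178D hearts at 21.5, 21.7, 21.2 and 23.8 CPM. All 4 A178D hearts lay between the lowest and the highest WT heart. This was a log2 fold change of -0.04 (SE 0.109, edgeR adjusted p = 0.900), with an interval of -0.27 to 0.19. The direction of Tgfb1 and Tgfb3 was not stable, since without WT replicate 4 Tgfb1 was at -0.03 and without WT replicate 1 Tgfb3 was at 0.03 on the log2 scale.

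Per kilobase of exon, Tgfb3 held the largest share of the 3 ligands' level and Tgfb2 the smallest. The share of Tgfb3 was 47.1% ± 1.71 (SD, n = 3) in the WT hearts, and A178D hearts gave 45.3% ± 0.961 (SD, n = 4). Tgfb1 took 37.0% ± 2.25 in WT and 37.2% ± 1.39 in A178D. Tgfb2 took 15.9% ± 1.13 in WT and 17.5% ± 1.30 in A178D. The order of the first pair depended on the length used: with each gene's longest annotated transcript in place of all its exons, Tgfb1 took 52.6% ± 2.40 and Tgfb3 34.2% ± 1.71 in WT, and Tgfb2 was still the smallest at 13.1% ± 1.06. Under both lengths the shares in A178D differed from those in WT by less than 2 SD of the WT hearts.

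Among the receptors, the type I receptor gene Tgfbr1 was at 25.3, 25.1 and 28.7 CPM in WT and 22.8, 26.6, 23.8 and 20.1 CPM in A178D. A178D replicate 2 lay within the WT hearts and the other A178D hearts below them. On the log2 scale Tgfbr1 differed by -0.17 (SE 0.101, edgeR adjusted p = 0.423), with an interval of -0.37 to 0.05. It was -0.11 without WT replicate 4, -0.11 without A178D replicate 4 and -0.10 with offsets that take out how each library's counts follow length and GC content. The type II receptor gene Tgfbr2 (chr9:116084293-116175360), which binds the ligand first, was at 75.6, 81.9 and 79.2 CPM in WT and 66.4, 74.3, 70.8 and 65.8 CPM in A178D. Every A178D heart was below every WT heart, with A178D replicate 2 nearest to WT replicate 1. The difference was -0.19 (SE 0.0714, edgeR adjusted p = 0.207) and did not pass the test over all genes. It was -0.10 with these offsets. Of the 3 genes for co-receptors and the endothelial type I receptor ALK1, 0 were called in either direction, with 1 at an unadjusted p under 0.05 and a median of -0.14 beside 0.00 over all tested genes. Tgfbr3, the betaglycan gene, whose product presents ligand to the type II receptor, was at 85.3, 83.7 and 82.7 CPM in WT and 59.8, 67.3, 76.4 and 60.8 CPM in A178D. The genotypes did not overlap, and the log2 fold change was -0.34 (SE 0.0857, edgeR adjusted p = 0.0543). It passed with DESeq2 (adjusted p = 0.00978), with limma-voom (adjusted p = 0.0480) and in edgeR with no filter (adjusted p = 0.0336), with the offsets (adjusted p = 0.0374) and without A178D replicate 3 (adjusted p = 0.0238), in a range of 0.00978 to 0.187 over all alternatives. Eng, the endoglin gene of endothelial cells and the most abundant of the 3, was at 254, 249 and 240.5 CPM in WT and 208, 227, 229 and 256 CPM in A178D, with a log2 fold change of -0.11 (SE 0.0748, edgeR adjusted p = 0.513), or -0.16 to -0.06 with 1 heart left out.

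Ltbp1 (chr17:75005568-75392512), the gene of the binding protein that anchors latent TGF-beta in the matrix, had the smallest p of the 10 members. It stood at 89.2, 98.8 and 97.1 CPM in WT and 73.6, 81.0, 81.9 and 79.3 CPM in A178D. Every A178D heart was below every WT heart, A178D replicate 1 was the lowest, and the gap between the nearest pair was wider than for any other member. The log2 fold change was -0.27 (SE 0.0704, edgeR adjusted p = 0.0684), with a limma-voom interval of -0.42 to -0.12. It passed with DESeq2 (adjusted p = 0.0158), in edgeR without WT replicate 1 (adjusted p = 0.0478) and without both libraries that follow transcript length (adjusted p = 0.0152), and over all alternatives the adjusted p ran from 0.0152 to 0.255. By the ranges of the hearts, 3 of the 10 members (Tgfbr2, Ltbp1 and Fn1) had all A178D hearts below all WT hearts and 0 had all of them above. Over all tested genes 8.52% lay fully below and 7.61% fully above.

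Ltbp1's pattern over the 7 hearts was followed most closely by Lonrf1, Smc1a and Rbm5, out of 10258 tested genes with a mean of at least 5 CPM. Pearson's r with Ltbp1 on log2 CPM was 0.991 for Lonrf1, 0.990 for Smc1a and 0.986 for Rbm5, over 7 libraries that share their depth and composition differences, and is given as a description only. Lonrf1 fell by 0.65 on the log2 scale (SE 0.115, edgeR adjusted p = 0.0115), and its adjusted p was above the threshold when WT replicate 3 (0.0872) or WT replicate 4 (0.0564) was left out. Rbm5 fell by 0.36 (SE 0.0776, edgeR adjusted p = 0.0307), and its adjusted p was above the threshold when WT replicate 3 (0.166), WT replicate 4 (0.12), A178D replicate 1 (0.104) or A178D replicate 3 (0.0627) was left out, and with offsets for length and GC content (adjusted p = 0.0879). Smc1a, a cohesin gene, was at -0.21 (SE 0.0677, edgeR adjusted p = 0.131) and passed without both libraries that follow transcript length (adjusted p = 0.0403).

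The list of latency and activation genes holds other binding proteins, fibrillins, integrins and proteases that store or release the ligand. Of its 15 genes 15 were tested, 1 was called higher and 0 lower, 4 were higher at an unadjusted p under 0.05, and the median was 0.14 beside 0.00 over all tested genes. Over the alternatives 0 to 4 of the list were called higher. Emilin1, whose product keeps the TGF-beta precursor from being processed, was at 38.5, 32.4 and 27.5 CPM in WT and 45.5, 47.7, 43.3 and 46.5 CPM in A178D. Every A178D heart was above every WT heart, with WT replicate 1 the nearest, and Emilin1 rose by 0.48 (SE 0.101, edgeR adjusted p = 0.0263). Its adjusted p was above the threshold when WT replicate 3 (0.135), WT replicate 4 (0.111), A178D replicate 1 (0.0761) or A178D replicate 2 (0.0621) was left out. Ltbp4, the most abundant gene of the list, was at 604, 659.8 and 529 CPM in WT and 504, 538, 511 and 576 CPM in A178D, and its log2 fold change was -0.17 (SE 0.0812, edgeR adjusted p = 0.323), or -0.25 to -0.09 with 1 heart left out.

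Ctgf (chr10:24595442-24598683), an early target of TGF-beta in fibroblasts, varied more between hearts than any other member. It was at 73.0, 95.9 and 50.9 CPM in WT and 50.8, 51.5, 50.3 and 72.8 CPM in A178D. WT replicate 3 stood highest, WT replicate 4 lay beside 3 of the A178D hearts, and A178D replicate 4 lay beside WT replicate 1, so the genotypes overlapped. For Ctgf the log2 fold change was -0.38 (SE 0.174, edgeR adjusted p = 0.287), with an interval of -0.74 to 0.01. Leaving out WT replicate 3 gave -0.14, leaving out WT replicate 4 -0.59 and leaving out A178D replicate 4 -0.53. An annotated transcript on the opposite strand, Gm15270, shares 665 bases with the exons of Ctgf, and whether the counting used strand is not given in the sources used here. Genes on the opposite strand also share exon bases with the members Fn1 (292), Tgfb3 (257 with 1 gene and 163 with another) and Tgfb2 (124) and, of the called genes below, with Tagln (1241 with 1 gene and 108 with another) and Mylk (548 with 1 gene and 224 with another).

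Of the other 5 genes of the CCN family, 4 were tested, 1 was called higher and 0 lower, 1 was higher and 1 lower at an unadjusted p under 0.05, and the median was -0.01 beside 0.00 over all tested genes. Wisp2 was at 11.1, 10.4 and 7.90 CPM in WT and 16.9, 12.7, 15.7 and 20.4 CPM in A178D. Every A178D heart was above every WT heart, A178D replicate 2 by the least, and Wisp2 rose by 0.73 (SE 0.156, edgeR adjusted p = 0.0264). Its adjusted p was above the threshold when WT replicate 3 (0.106), WT replicate 4 (0.125), A178D replicate 1 (0.0828) or A178D replicate 3 (0.0563) was left out. Cyr61, the most abundant of the 5 and, like Ctgf, an early response gene, was at 67.9, 47.7 and 45.6 CPM in WT and 51.3, 55.9, 51.0 and 52.2 CPM in A178D. WT replicate 1 stood above all other hearts, which lay close together, and the log2 fold change was -0.03 (SE 0.116, edgeR adjusted p = 0.931).

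Postn encodes periostin, a matrix protein that marks activated fibroblasts. It was at 47.9, 44.6 and 39.8 CPM in WT and 41.7, 43.3, 40.8 and 42.5 CPM in A178D. All A178D hearts lay between the lowest and the highest WT heart and within a narrow range. The log2 fold change was -0.07 (SE 0.0791, edgeR adjusted p = 0.709), with an interval of -0.24 to 0.10, and without WT replicate 4 it was -0.14, without WT replicate 1 0.00 and with the offsets for length and GC content 0.01. Fn1 (chr1:71585520-71653200) encodes fibronectin, which forms the first scaffold on which other matrix proteins are laid. Its level was 87.7, 86.9 and 72.5 CPM in WT and 70.5, 72.4, 70.1 and 60.7 CPM in A178D. The genotypes did not overlap, but WT replicate 4 and A178D replicate 2 were nearly equal, and A178D replicate 4 was the lowest heart. For Fn1 the log2 fold change was -0.27 (SE 0.0866, edgeR adjusted p = 0.134), with an interval of -0.45 to -0.08. It was -0.21 without A178D replicate 4 and -0.17 without both libraries that follow transcript length.

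Fibronectin and periostin act through integrins, cross-linking enzymes and partner matrix proteins. All 8 listed partners were tested, 0 were called in either direction, 2 were higher and 1 was lower at an unadjusted p under 0.05, and the median was -0.08 beside 0.00 over all tested genes. DESeq2 called 1 higher and 1 lower. Tgm2, the tissue transglutaminase gene, whose product cross-links fibronectin, was at 319.8, 336 and 341 CPM in WT and 457, 393, 366 and 445 CPM in A178D, the genotypes lying apart with A178D higher. Its log2 fold change was 0.32 (SE 0.0820, edgeR adjusted p = 0.0591), and the adjusted p ran from 0.00652 to 0.192 over the alternatives. Itgb1, the integrin subunit gene with the highest level of the list, was at 451, 459.7 and 494 CPM in WT and 475, 437, 449 and 396 CPM in A178D (log2 fold change -0.09 (SE 0.0736, edgeR adjusted p = 0.571), or -0.13 to -0.04 with 1 heart left out).

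Smad7 encodes the inhibitory Smad that the pathway induces and that blocks the type I receptor. It was at 19.7, 16.2 and 15.2 CPM in WT and 13.4, 17.5, 18.8 and 19.3 CPM in A178D. The genotypes overlapped, with A178D replicate 1 lowest and WT replicate 1 highest. The log2 fold change was 0.01 (SE 0.130, edgeR adjusted p = 0.976), with an interval of -0.28 to 0.28, and it changed sign under several alternatives. Of 15 further Smads and regulators, 15 were tested, 0 were called in either direction, 2 were higher and 1 lower at an unadjusted p under 0.05, and the median was -0.03. DESeq2 called 1 of them higher. Bambi, a decoy receptor gene, was at 17.5, 16.0 and 15.7 CPM in WT and 20.2, 19.4, 21.8 and 21.6 CPM in A178D. Its hearts did not overlap, and the log2 fold change was 0.34 (SE 0.0899, edgeR adjusted p = 0.0701), with adjusted p from 0.0225 to 0.241 over the alternatives. Ppm1a, a Smad phosphatase gene and the most abundant of the list, was at 113, 111 and 109 CPM in WT and 121, 106, 105 and 115 CPM in A178D (log2 fold change 0.01 (SE 0.0707, edgeR adjusted p = 0.981)).

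Matrix and fibroblast response genes, the readout furthest downstream, had log2 fold changes mostly above 0. Of 25 genes 23 were tested, and 3 were called higher and 0 lower. Of the 23, 20 had a log2 fold change above 0 and 11 were higher at an unadjusted p under 0.05. Of all 13894 tested genes, 7018 had a log2 fold change above 0. Among these 13894, 7.93% were higher at an unadjusted p under 0.05 and 1.04% were called higher. The list's median was 0.26 beside 0.00 over all tested genes and -0.12 over the 10 members. The count of calls moved with the hearts and the tool: 6 with DESeq2, 6 without WT replicate 1, 0 without WT replicate 3, 1 without A178D replicate 3, and 9 without both libraries that follow transcript length. Summed over the list, the level was 1169, 1089.9 and 862 CPM in WT and 1327, 1343, 1305 and 1331 CPM in A178D. Every A178D sum was above every WT sum, and the A178D hearts lay closer together than the WT hearts.

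Col3a1, the type III collagen gene and the most abundant of the list, was at 248, 213 and 141 CPM in WT and 303, 324, 305 and 306 CPM in A178D. WT replicate 4 was the lowest heart and the A178D hearts lay close together above all WT hearts. Col3a1 rose by 0.62 (SE 0.138, edgeR adjusted p = 0.0317), and its adjusted p was above the threshold when WT replicate 3 (0.113), A178D replicate 1 (0.0840), A178D replicate 2 (0.0672) or A178D replicate 3 (0.0712) was left out. Timp1, a gene for an inhibitor of matrix-degrading enzymes, was low, at 1.48, 0.935 and 1.13 CPM in WT and 2.26, 3.68, 3.05 and 3.09 CPM in A178D. Every A178D heart was above every WT heart, and Timp1 rose by 1.35 (SE 0.243, edgeR adjusted p = 0.0130). Its adjusted p was above the threshold when WT replicate 3 (0.0849) or WT replicate 4 (0.0662) was left out.

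**Figure D2:**
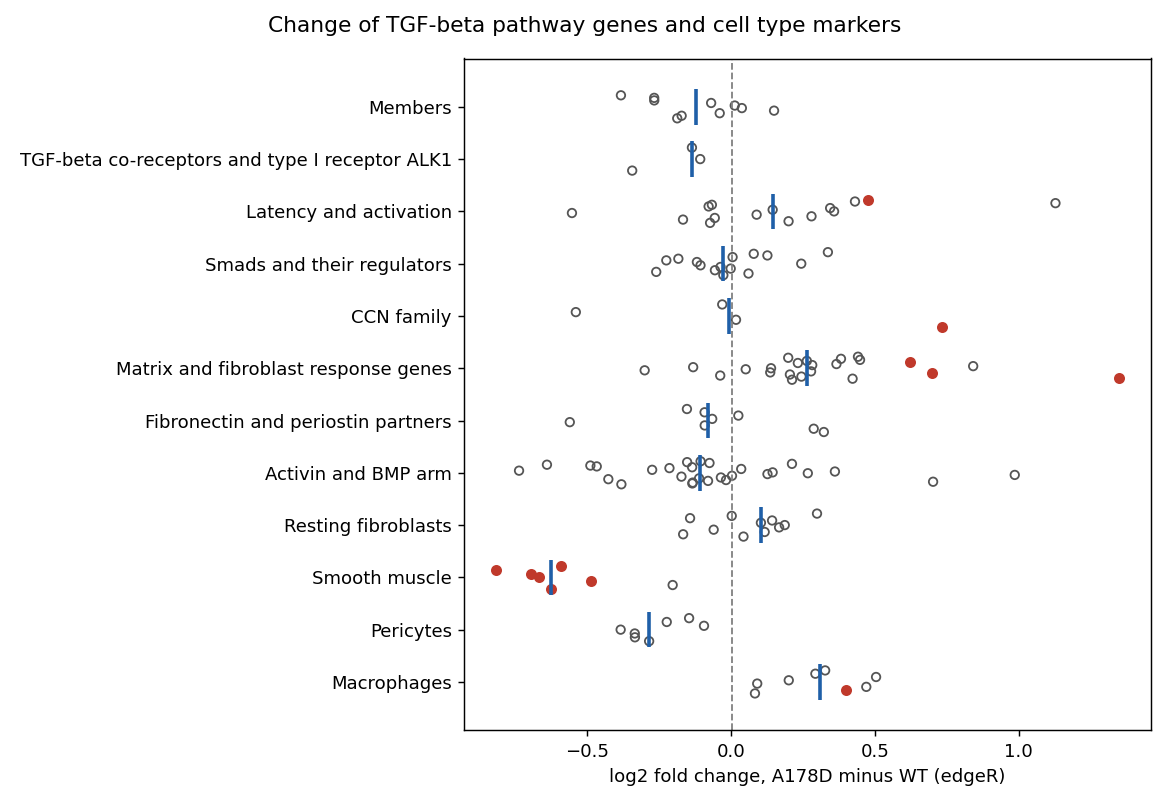
log2 fold change, A178D minus WT, of each tested gene (circles) in the members, the pathway lists and selected cell type lists, with called genes (edgeR adjusted p under 0.05) filled in red, each list's median as a blue bar and the median of all tested genes as a dashed line. The members' median lies at -0.12, the matrix and fibroblast response genes' at 0.26 and the smooth muscle genes' at -0.62.

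The activin and bone morphogenetic protein (BMP) arm shares Smad4 with TGF-beta. Of its 32 genes 28 were tested and 0 were called in either direction. At an unadjusted p under 0.05, 1 was higher and 2 were lower, and the median was -0.11 beside 0.00 over all tested genes. DESeq2 called 1 higher and 2 lower. Chrd, the gene of the BMP antagonist chordin, was at 4.24, 6.14 and 4.11 CPM in WT and 2.33, 3.41, 2.62 and 3.24 CPM in A178D, with every A178D heart below every WT heart. Its log2 fold change was -0.74 (SE 0.195, edgeR adjusted p = 0.0689), with adjusted p from 0.0196 to 0.317 over the alternatives. Bmpr1a, a BMP type I receptor gene and the most abundant of the list, was at 120.3, 108 and 128 CPM in WT and 132, 131, 128 and 95.2 CPM in A178D (log2 fold change 0.04 (SE 0.105, edgeR adjusted p = 0.908)). The genes Bmp10 and Grem1 had 0 counts in every heart.

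In whole tissue, fewer cells of a type and less RNA per cell cannot be told apart, so markers of the cell types that express these genes were read beside the members. Of 11 resting fibroblast genes 11 were tested and 0 were called, 2 were higher at an unadjusted p under 0.05, and the median was 0.10. Their summed level was 2322, 2668 and 2306 CPM in WT and 2680.2, 2557, 2484 and 2594 CPM in A178D, which overlapped. The most abundant, the gelsolin gene Gsn, was at 1311, 1560.3 and 1242 CPM in WT and 1466, 1466, 1418 and 1546 CPM in A178D. Col15a1, with the smallest p of the list, was at 142, 123 and 90.3 CPM in WT and 152, 164, 144 and 123 CPM in A178D (log2 fold change 0.30 (SE 0.130, edgeR adjusted p = 0.265)). This value fell to 0.14 without WT replicate 4 (adjusted p = 0.617), and the gene passed in 1 alternative, chosen after seeing the data, without both libraries that follow transcript length (adjusted p = 0.00849).

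Smooth muscle genes were lower in A178D. Of 7 genes 6 were called lower and 0 higher, with a median of -0.62. Summed over the 7 genes, the level was 708, 700.0 and 658 CPM in WT and 428, 510.4, 530.4 and 519 CPM in A178D, and every A178D sum was below every WT sum. Acta2 fell by 0.59 (SE 0.0910, edgeR adjusted p = 0.00587), from 177, 213 and 183 CPM in WT to 108, 127, 134 and 137 CPM in A178D. Tagln fell by 0.62 (edgeR adjusted p = 0.00770), Myh11 by 0.67 (adjusted p = 0.0146), Cnn1 by 0.82 (adjusted p = 0.0337), Lmod1 by 0.70 (adjusted p = 0.0427) and Mylk by 0.49 (adjusted p = 0.0317). Smtn, the most abundant gene of the list, was at -0.20 (edgeR adjusted p = 0.212), and passed with the offsets for length and GC content (adjusted p = 0.0446) and without both libraries that follow transcript length (adjusted p = 0.0293). No gene of the list was at 0. Leaving out WT replicate 1 or A178D replicate 1 gave 3 called genes, and leaving out WT replicate 3 or WT replicate 4 gave 2, while Acta2 and Tagln were called in all 7 fits that leave out 1 heart, Myh11 in 5 of them, Mylk in 2, and Cnn1 and Lmod1 in 1 each. Of 7 pericyte genes 0 were called in the main edgeR fit, where 4 were lower at an unadjusted p under 0.05 and all 7 had a log2 fold change below 0, and other fits called up to 3 lower (3 with DESeq2 and 3 with the offsets), and the median was -0.28. Their summed level was 1108, 1134 and 1083 CPM in WT and 944, 994, 1057 and 823 CPM in A178D, with Abcc9 the most abundant and Rgs5 at -0.33 (SE 0.0870, edgeR adjusted p = 0.0653). Rgs5 passed with DESeq2 (adjusted p = 0.0127), with the offsets (adjusted p = 0.0159), with no filter (adjusted p = 0.0400), without A178D replicate 4 (adjusted p = 0.0495) and without both libraries that follow transcript length, in a range of 0.00983 to 0.226 over all alternatives. The part of smooth muscle cells and pericytes in the members' levels was not tested.

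Macrophages, a source of TGF-beta in the heart, were followed by 8 genes, of which 1 was called higher and 0 lower, and 4 were higher at an unadjusted p under 0.05, with a median of 0.31 and 0 to 2 called higher over the alternatives. Their summed level was 270.4, 348 and 318 CPM in WT and 388, 390.4, 352 and 394 CPM in A178D, and every A178D sum was above every WT sum. Lyz2, the lysozyme gene and the most abundant, rose by 0.40 (SE 0.0902, edgeR adjusted p = 0.0339), and its adjusted p was above the threshold when WT replicate 1 (0.0706), WT replicate 3 (0.0915), WT replicate 4 (0.0786), A178D replicate 1 (0.117) or A178D replicate 2 (0.0621) was left out. No gene of the list was at 0, and the part of macrophages in the matrix genes' levels was not tested. Of 7 endothelial genes 0 were called in the main edgeR fit (median 0.08), with Kdr the most abundant and Cldn5 at 0.39 (SE 0.107, edgeR adjusted p = 0.0764). Cldn5 passed with DESeq2 (adjusted p = 0.0224), without WT replicate 1 (adjusted p = 0.0463) and without both libraries that follow transcript length (adjusted p = 0.0332), and Kdr, at 0.08 (SE 0.110, edgeR adjusted p = 0.775) in the main fit, passed in the last of these alone (adjusted p = 0.0127). Of 9 cardiomyocyte genes 0 were called (median -0.01), with Actc1 at 0.13 (SE 0.0591, edgeR adjusted p = 0.293) and at 0.04 with the offsets for length and GC content. Platelet genes, which mark another store of TGF-beta, were low, and of 5 tested 0 were called, with Pf4 the most abundant and Gp9 at 1.27 (SE 0.584, edgeR adjusted p = 0.292), or 0.80 to 1.66 with 1 heart left out. Lymphocyte genes summed to 3.77, 3.92 and 2.46 CPM in WT and 4.96, 3.24, 4.40 and 3.21 CPM in A178D, Cd79b the most abundant, and 0 of 7 were called, 1 with limma-voom. Cd3d, a T cell receptor subunit gene with the smallest p of that list, was at 0, 0 and 0.0984 CPM in WT and 0.198, 0.228, 0.234 and 0.494 CPM in A178D, too few counts for a fold change. Of the 5 epicardial genes 2 were tested and 0 called (Aldh1a2 0.36 (SE 0.195, edgeR adjusted p = 0.378), or 0.16 to 0.57 with 1 heart left out), and of the 5 adipocyte genes 3 were tested and 0 called (Cfd -0.53 (SE 0.501, edgeR adjusted p = 0.635), or -0.89 to -0.13 with 1 heart left out). Among the Y-linked genes 0 were called, and Xist was not analysed here.

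The members were then ordered by level per length. In CPM per kilobase of exon, WT hearts held Ctgf at 25.6 ± 7.86 (SD, n = 3), Tgfbr2 at 9.64 ± 0.386, Ltbp1 at 8.89 ± 0.479, Fn1 at 7.05 ± 0.732 and Tgfb3 at 6.68 ± 1.10. Below these came Tgfb1 at 5.20 ± 0.441, Postn at 5.07 ± 0.470, Tgfbr1 at 4.03 ± 0.309, Smad7 at 3.78 ± 0.525 and Tgfb2 at 2.27 ± 0.448. The hearts' values overlapped between Tgfbr2 and Ltbp1, Fn1 and Tgfb3, Tgfb3 and Tgfb1, Tgfb1 and Postn, and Tgfbr1 and Smad7, but both genes of a pair are read in the same heart. Within each of the 3 WT hearts the first gene was above the second for 4 of these 5 pairs, and Tgfbr1 was above Smad7 in 2 of 3. In the A178D hearts Tgfbr2 was above Ltbp1 and Tgfb3 above Tgfb1 in 4 of 4, Tgfb1 above Postn in 3, Tgfbr1 above Smad7 in 2 and Fn1 above Tgfb3 in 0. With the longest transcript as the length, Ltbp1 was above Tgfbr2, Tgfb1 above Tgfb3 and Fn1 above Tgfb3 in all 7 hearts, so the order of these pairs depended on the length used. In A178D hearts the same scale gave Ctgf 19.7 ± 3.84 (SD, n = 4) as the highest and Tgfb2 2.52 ± 0.111 as the lowest. With the longest transcript, Ctgf was still the highest and Tgfb2 the lowest in WT, and Ltbp1 and Tgfb1 moved up to 14.2 ± 0.768 and 10.2 ± 0.863.

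Promoter sequence was read for the members and the called genes that had an entry (RefSeq, GRCm38.p6, 250 bases before the annotated start), and 6 of the 10 members matched: Tgfb1, Tgfb2, Tgfbr1, Tgfbr2, Ltbp1 and Postn. They are shown for Tgfbr2 and Ltbp1, the matched members whose A178D hearts all lay below the WT hearts, and for Emilin1 and Col3a1, which rose. Capitals mark the Smad-binding letters CAGAC or their reverse complement GTCTG, and the TEAD-binding letters GGAATG or CATTCC, searched on both strands with no overlap between the motifs. A match in such short letters is common: 42.2% of all 32851 promoter windows hold the Smad letters and 12.6% the TEAD letters. The Tgfbr2 window lies on the minus strand at chr9:116175364-116175613, the Ltbp1 windows on the plus strand at chr17:75005279-75005528 and, inside the gene, at chr17:75178531-75178780, the Emilin1 window on the plus strand and also inside the gene's annotated bounds at chr5:30913536-30913785 and the Col3a1 window on the plus strand at chr1:45311288-45311537.
Tgfbr2: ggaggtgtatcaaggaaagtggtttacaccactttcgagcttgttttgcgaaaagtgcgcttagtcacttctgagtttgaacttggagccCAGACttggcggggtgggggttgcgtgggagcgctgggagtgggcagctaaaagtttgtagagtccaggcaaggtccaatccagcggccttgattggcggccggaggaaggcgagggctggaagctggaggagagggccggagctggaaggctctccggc
Ltbp1, upstream start: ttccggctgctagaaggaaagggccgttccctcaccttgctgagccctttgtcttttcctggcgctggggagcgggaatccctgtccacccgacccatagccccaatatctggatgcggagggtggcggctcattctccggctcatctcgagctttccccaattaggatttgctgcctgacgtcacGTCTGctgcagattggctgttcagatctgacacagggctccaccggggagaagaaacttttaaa
Ltbp1, downstream start: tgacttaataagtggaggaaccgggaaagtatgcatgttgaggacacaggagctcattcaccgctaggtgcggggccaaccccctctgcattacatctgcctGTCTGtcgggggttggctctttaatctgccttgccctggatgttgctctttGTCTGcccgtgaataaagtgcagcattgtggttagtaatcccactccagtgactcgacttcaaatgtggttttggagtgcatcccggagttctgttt
Emilin1: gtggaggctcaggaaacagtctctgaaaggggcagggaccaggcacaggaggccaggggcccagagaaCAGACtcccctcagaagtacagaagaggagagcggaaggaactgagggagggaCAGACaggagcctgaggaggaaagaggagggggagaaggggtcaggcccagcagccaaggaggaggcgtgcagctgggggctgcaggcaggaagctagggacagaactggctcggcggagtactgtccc
Col3a1: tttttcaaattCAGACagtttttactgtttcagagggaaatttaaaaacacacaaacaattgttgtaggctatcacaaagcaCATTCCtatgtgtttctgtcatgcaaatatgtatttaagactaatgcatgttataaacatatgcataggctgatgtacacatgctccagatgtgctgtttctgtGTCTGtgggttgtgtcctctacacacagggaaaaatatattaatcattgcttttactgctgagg
The Smad letters occur 1 time before Tgfbr2, 1 time and 2 times before the upstream and downstream starts of Ltbp1, and 2 times each before Emilin1 and Col3a1, so they were found before members whose A178D hearts lay below the WT hearts without passing the test, and before called genes that were higher. The shown windows all hold these letters, but not every matched window does: 6 of the 9 windows of the matched members and 5 of the 9 windows of the matched called genes hold them. The Col3a1 window also holds the TEAD letters 1 time, and over the matched windows 0 of 9 of the members and 5 of 9 of the called genes hold these.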

How the data were processed

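RNA of 7 left ventricles (3 WT, 4 A178D) was sequenced from both ends as stranded mRNA libraries, and the authors deposited a raw count per gene and library, with no normalization. Their other deposited table holds a signal, the same count divided by 1 size factor per library, and was read only for those factors. Per the submitters' processing notes, bcl2fastq 2.18.0.12, HISAT2 2.1.0, SAMtools 1.6, DESeq2 1.26.0 and GRCm38 were used. The counting program and the annotation are not given in the sources used here. Identifiers were named from GENCODE M21 on GRCm38, which also gave positions and lengths. Entries with identical counts in all libraries were counted once where they had at least 30 counts in total or shared 1 identifier, so 20927 of 21257 were kept. Odd numbers made up 17.6 to 20.3% of the counts from 1 to 20 in a library.

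Differences were tested with edgeR 4.0.16 in R 4.3.3 (TMM, glmQLFit and glmQLFTest) on genes that reached 10 counts in 3 or more libraries, with Benjamini-Hochberg adjustment over all 13894. Intervals come from limma 3.58.1 (voom, 95%). The labels name the hearts as separate samples, and p-values measure the spread between them. CPM per kilobase uses the union of exons. The pipeline was tested on simulated data, where edgeR recovered 96% of 200 genes changed by 1 on the log2 scale with 15 false calls among 13751 genes. The members' log2 fold changes, from -0.38 to 0.15, were smaller than this change, and the simulation held no trend with transcript length. The share recovered therefore does not apply to changes as small as those of the members.

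The members and all lists were chosen with earlier results of these data known. Named genes are all members; from each list every called gene where 10 or fewer were called, otherwise the 10 largest changes; the most abundant gene; the gene with the smallest p where none was called; the 3 genes most like the member with the smallest p; and all sex-linked genes. Some genes of the lists are not reported here by name, but count in their list's numbers. A list is described by its counts and median, with no set test. Alternatives were DESeq2 1.42.0, edgeR with DESeq2's size factors, limma-voom, a looser and a stricter filter (none, or 10 counts in all libraries), a replicate block, a threshold of 0.01, the table as deposited, offsets for length and GC content (mgcv 1.9.3), each heart left out and, for levels, the longest transcript. Leaving out both libraries that follow transcript length was added after seeing the data. Tables and figures were made with Python 3.11.15.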

Additional observations from a re-analysis of the deposited data

Results flagged for a closer look

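In the 4 A178D hearts, 5 of 73 gene levels and list sums had 1 heart apart from the other 3, by a gap that took up most of the range of the 4, which chance gives in about 1 of 20 groups. This measures the gap against the range and not its size. Ctgf was at 72.8 CPM in A178D replicate 4, above the other A178D hearts. Col3a1 was at 324 CPM in A178D replicate 2, above the other A178D hearts, which were at 303, 305 and 306 CPM, a small distance. Bmpr1a was at 95.2 CPM in A178D replicate 4, below the others, and Cd3d at 0.494 CPM in A178D replicate 4, above them. The summed macrophage genes were at 352 CPM in A178D replicate 3, below the others. A178D replicate 4, which holds 3 of these 5 values, is also the heart whose counts fell most with transcript length.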

How the results depend on the processing

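Of the members, Tgfb2, Tgfbr1, Tgfbr2, Ltbp1, Ctgf and Fn1 kept the direction of their log2 fold change in every alternative fit, though Tgfb2 came down to 0.0077 without WT replicate 4, and 0 were called higher in any. With DESeq2, 290 genes were called higher and 375 lower, and 1 member lower, against 0. Offsets for length and GC content gave 284 genes called lower. An adjusted p under 0.01 left 24 higher and 40 lower. With both libraries that follow transcript length left out, chosen after seeing the data, the counts were 353 and 407, with 1 member lower. Leaving out 1 heart at a time gave 22 to 215 genes called higher, 31 to 238 lower and 0 to 1 members lower, fewer hearts being part of these fits' construction. Same-numbered hearts did not deviate together (r = 0.0031, -0.0402 and -0.0424). With 3 WT and 4 A178D hearts this cannot decide whether the replicate number pairs samples, and the labels give only the shared numbers. With the replicate block 124 genes were called higher and 147 lower, with 0 members. With the replicate block Smad7 was at -0.00078 and Bmpr1a at -0.013 on the log2 scale.

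Directions turned for small differences, and the cause was not tested. With limma-voom Smad7 was at -1.2e-05. With offsets for length and GC content Tgfb1 was at -0.0053, Postn at 0.014, Pf4 at -0.037 and Kdm5d at 0.072. With both libraries that follow transcript length left out, Cyr61 was at 0.179, Pf4 at -0.096, Ddx3y at 0.017 and Kdm5d at 0.031. With 1 heart left out, Tgfb1 ran from -0.027 to 0.092, Tgfb3 from -0.168 to 0.032, Smad7 from -0.061 to 0.134, Ppm1a from -0.035 to 0.035, Cyr61 from -0.135 to 0.177, Bmpr1a from -0.028 to 0.135, Kdr from -0.035 to 0.266, Cd79b from -0.029 to 0.466, Pf4 from -0.028 to 0.278, Ddx3y from -0.165 to 0.038 and Kdm5d from -0.115 to 0.077. All members had at least 10 CPM in every heart, and what limits the number of calls was not tested.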
